A study of Mus musculus with 4 samples.

Results

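The genes described here are the immunoglobulin constant-region genes and the gene of the joining chain: the heavy-chain genes Igha, Ighm, Ighd, Ighg1, Ighg2b and Ighg2c, the light-chain genes Igkc, Iglc1 and Iglc2, and Jchain. They were chosen by name as a gene family and make up 10 of the 16500 symbols listed in any library. Their transcripts were read in single leukocytes sorted as CD45.2+ from the intraepithelial layer of uninfected C57BL/6 mice, with 1 droplet library (10x Genomics 3′ chemistry) each for small intestine, cecum, stomach and colon. No genetic change or treatment is named in the labels, and the number of animals behind a library is not given in the sources used here. All 10 genes were listed in the small intestine and cecum libraries. Ighg1, Ighg2b and Ighg2c were not listed in stomach, and Ighg1 and Ighg2c were not listed in colon. Ighg3 and Iglc3 are added where they bear on a member. Ighg3 was not listed in stomach, and Ighe, the constant region of IgE, was not listed in any library.

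An antibody is built from heavy chains and light chains, and the constant region of the heavy chain sets its class. Naive B cells carry IgM and IgD on their surface; class switching replaces the IgM constant region by that of an IgG, IgE or IgA class. Plasma cells secrete the antibody, and in the gut wall most of it is IgA, which the J chain joins into dimers that the epithelium can carry into the lumen. Light chains are of the kappa or the lambda type, and a B cell normally makes only one of them.

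Cells were classed by transcript counts. A plasma cell held at least 10 UMIs (unique molecular identifiers, each standing for 1 captured transcript) of Jchain. A B cell held at least 2 UMIs of the B cell genes Cd79a and Ms4a1 together and fewer than 10 of Jchain. A Cd3-positive cell, the reference for free RNA in the droplets, met neither rule and held at least 1 UMI of Cd3d, Cd3e or Cd3g. The plasma cell rule found 224 cells in small intestine, 26 in cecum, 4 in stomach and 3 in colon, which were 7.06%, 0.613%, 0.125% and 0.0798% of the cells. The B cell rule found 76, 571, 104 and 205 cells in the same order of tissues, and 2505, 3461, 355 and 3397 cells were Cd3-positive. Jchain chose the plasma cells, so its level in them is a description. Around the threshold, 7 small intestine cells held 5 to 9 Jchain UMIs and 9 held 10 to 49, against 215 with 50 or more. In cecum the numbers were 19, 12 and 14.

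The libraries held 8568438 to 12988676 UMIs, with medians of 1707 to 2986 per cell, and 14373 of 14378 barcodes were kept. Between 1 and 6 barcode sequences were shared by any pair of libraries, 23 in all. Ptprc, the gene of the sorted CD45, had a UMI in 96.4% of cells in colon and in 59.7% in stomach, where most cells met none of the 3 rules. Among the small intestine cells, 29 of the 76 B cells and 29 of the 224 plasma cells also held 2 or more Cd3 UMIs, and no doublet caller was run. With 1 library per tissue there is no replicate check: no p-value is given, and tissue, animal and library cannot be told apart. Ranges in parentheses are exact 95% intervals that cover counting error only.

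The heavy-chain genes lie on the minus strand of chromosome 12 (GRCm38), in the order in which switching can reach them: Ighm at chr12:113418558-113422730, Ighd at chr12:113406604-113416324, Ighg1 at chr12:113325240-113330523, Ighg2b at chr12:113302965-113307933, Ighg2c at chr12:113285325-113288932 and Igha at chr12:113254830-113260236. Igkc lies at chr6:70726435-70726966, Iglc1 at chr16:19061618-19062071, Iglc2 at chr16:19198396-19200351 and Jchain, with 4 annotated exons, at chr5:88519809-88527891. What the J chain can join is set at the end of the heavy chain: secreted IgA and IgM end in a tailpiece whose last residue but one is a cysteine, the residue to which the J chain is bonded, and IgG has no such tailpiece. The last 57 coding bases of the secreted transcripts, read from the GENCODE M21 transcripts of GRCm38 and followed in each case by the stop codon, are shown for the heavy chains that led a plasma cell. The cysteine codon is in capitals.
Igha (chr12:113258771-113258827, minus strand): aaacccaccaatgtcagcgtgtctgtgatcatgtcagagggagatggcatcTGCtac
Ighm (chr12:113420870-113420926, minus strand): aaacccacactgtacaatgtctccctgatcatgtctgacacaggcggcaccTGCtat
Ighg2b (chr12:113306392-113306448, minus strand): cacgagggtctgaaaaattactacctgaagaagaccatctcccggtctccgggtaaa
Ighg3 (chr12:113359668-113359724, minus strand): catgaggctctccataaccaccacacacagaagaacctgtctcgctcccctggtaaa
No cysteine codon stands in that place in Ighg2b or Ighg3. The counts are per gene, so secreted and membrane forms could not be told apart. Some genes are near copies: the annotated transcripts of Iglc2 and Iglc3 are 94.3% identical and those of Ighg2b and Ighg2c 86.2%, so the split of counts within these pairs is uncertain. Iglc1 and Iglc2 are 67.7% identical.

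Small intestine plasma cells gave most of their transcripts to these genes. Constant-region and Jchain UMIs were 70.3% of all UMIs in the 224 small intestine plasma cells, with a median of 72.9% per cell and a range of 0.968% to 88.7%. The share was 33.1% in the 26 cecum plasma cells, 61.2% in the 4 of stomach and 59.5% in the 3 of colon. It was 1.02% to 2.05% in B cells and 0.0276% to 0.101% in Cd3-positive cells.

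Igha, the constant region of IgA, was the main heavy chain of small intestine plasma cells, at 174492 CPM (counts-per-million of all UMIs summed over the class). Per cell it had a median of 2161 UMIs, from 1 to 6882. Ighm, the constant region of IgM, was at 508 CPM, and Ighd, that of IgD, had no UMI, where a count of 3 would be 1.01 CPM. Ighg2b was at 121 CPM, Ighg1 at 16.6 CPM and Ighg2c at 13.9 CPM, so that the whole IgG group lay far under Igha. Igkc, the kappa constant region, was at 409058 CPM, with a median of 5157.5 UMIs per cell and a range of 0 to 17597. Iglc1 was at 35464 CPM and Iglc2 at 5057 CPM, and Jchain was at 75208 CPM, with a median of 1064.5 UMIs per cell. As UMIs are counted at the 3′ end, each transcript counts once whatever its length, and no correction for length was applied.

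**Figure D1:**
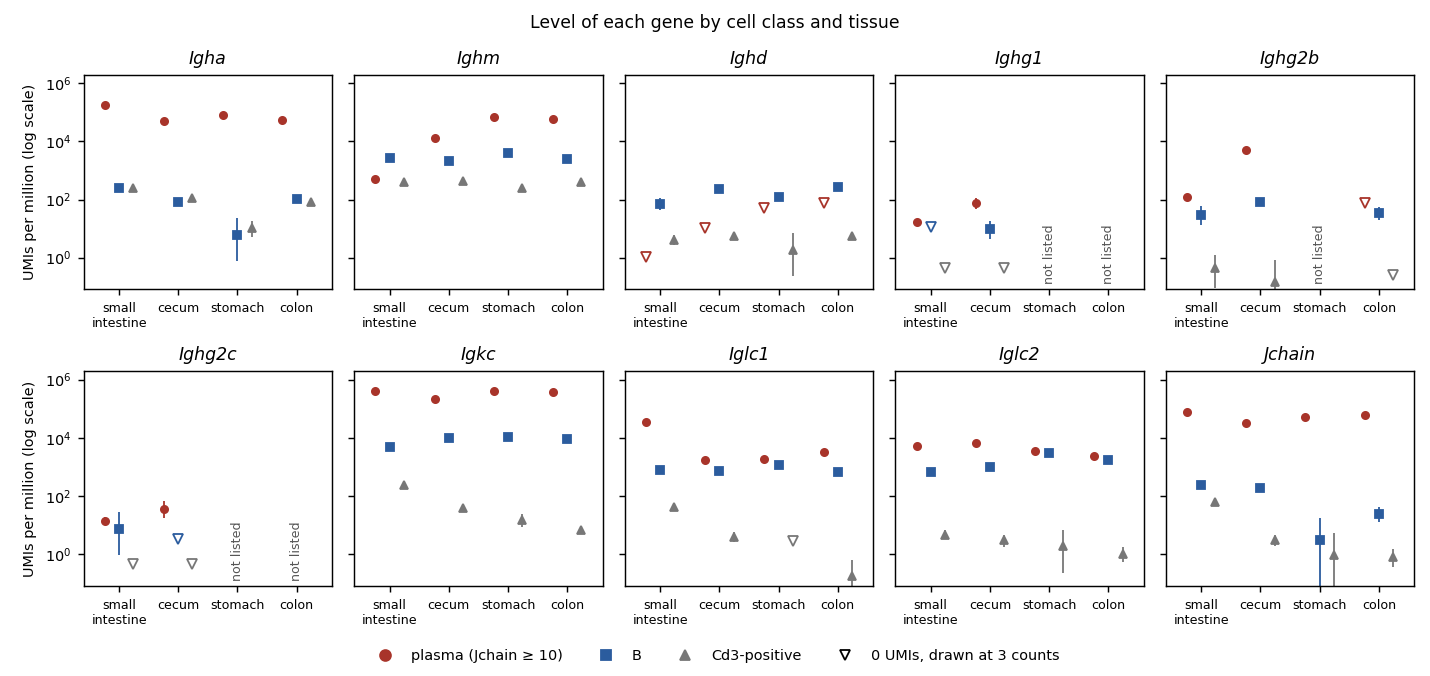
Level of each of the 10 genes (CPM, log axis, 1 panel per gene) in plasma cells, B cells and Cd3-positive cells of the small intestine, cecum, stomach and colon libraries. Points are sums over the cells of a class in 1 library, bars are exact 95% counting intervals, open triangles mark the level of 3 counts where none was found, and "not listed" marks a symbol absent from a library. Igha runs from 174492 CPM in small intestine plasma cells to 6.20 CPM in stomach B cells, and Ighd is found in B cells but in no plasma cell.

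Set against B cells of the same library, 6 of the 9 members with at least 20 UMIs were 2-fold or more higher in small intestine plasma cells and 1 was lower, where 4.1% of 7445 genes were higher and 80.5% lower. The high share of lower genes goes with the 70.3% of UMIs taken by the members themselves, as CPM are shares of a total. Igha was 700-fold (551 to 903) higher, at 174492 CPM in plasma cells and 249 CPM in B cells. Igkc was 83.3-fold higher, Iglc1 46.9-fold, Iglc2 7.55-fold and Ighg2b 4.07-fold (2.05 to 9.51). The ratio of Jchain, 306-fold, is set in part by the rule. Ighm was the member that was lower, at 508 CPM in plasma cells and 2765 CPM in B cells. In cecum 8 of 9 members were higher and 1, Ighd, was lower, with 6.04% of 7104 genes higher and 32.4% lower. There Ighm was 6.56-fold higher in plasma cells and Ighg2b 61.2-fold (48.7 to 77.9), while Ighd had no UMI in plasma cells, against 235 CPM in B cells, and was at least 22.1-fold lower with 3 counts in place of 0. The Ighm and Ighg2b sums of cecum rest on few cells. In them 1 plasma cell held 2295 of the 3769 Ighm UMIs, and 2 held 682 and 696 of the 1447 Ighg2b UMIs. The median per cecum plasma cell was 0 UMIs for both genes.

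A heavy-chain class was called in a plasma cell when it held at least 80% of at least 10 heavy-chain UMIs, with Ighm and Ighd summed. In small intestine 217 of 221 called cells were IgA, or 98.2% (95.4% to 99.5%), the other 4 were IgM/IgD and 3 cells had no call. Only 1 of these 4 held at least 100 heavy-chain UMIs, with 868 of Ighm. In stomach 1 cell was IgA, with 4522 Igha UMIs, and 3 were IgM, with 1902, 1073 and 1001 Ighm UMIs. The 3 colon cells were of 3 classes: 1 IgM cell with 2240 Ighm UMIs, 1 IgA cell with 2112 Igha UMIs and 1 IgG3 cell with 1207 Ighg3 UMIs. In stomach no IgG gene was listed, so only IgA or IgM/IgD could be called, and Ighg1 and Ighg2c were not listed in colon. These last 2 tissues show which of the listed classes were seen, and 4 and 3 cells are too few to give a share. In cecum 9 of the 26 cells were IgA, 4 IgM, 3 IgG2b, 3 mixed and 7 without a call.

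The cecum plasma cells were of 2 kinds by the number of heavy-chain UMIs, a split made after the values were seen. The 13 cells with at least 100 heavy-chain UMIs were 8 IgA cells with 545 to 3262 Igha UMIs, 3 IgM cells with 652, 752 and 2295 Ighm UMIs, and 2 IgG2b cells with 682 and 696 Ighg2b UMIs. The other 13 held 0 to 33 heavy-chain UMIs and 11 to 51 Jchain UMIs. All 13 had 2 or more UMIs of Ms4a1, and 12 had 5 or more of the division gene Mki67; Sdc1, a surface marker of plasma cells, had none. The cells with few heavy-chain UMIs thus held transcripts of B cells and of division, and they are kept apart from the others in the comparisons of gene lists. In small intestine 7 of the 224 cells had under 100 heavy-chain UMIs, and all 7 had 2 or more UMIs of Ms4a1 and 5 or more of Mki67, against 1 and 4 of the other 217. Apart from the cell with 868 Ighm UMIs, the small intestine IgM/IgD cells were among these 7.

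**Figure D2:**
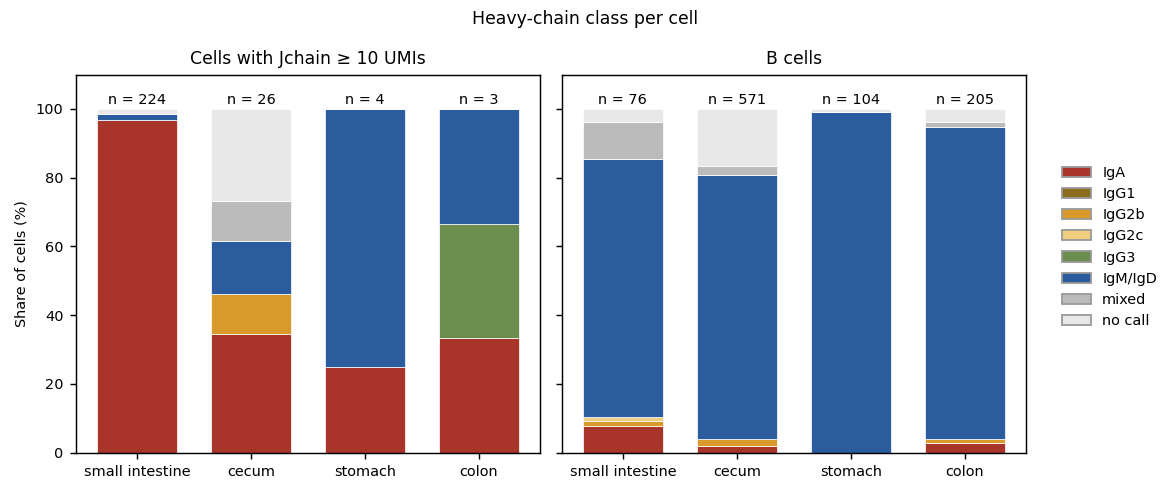
Heavy-chain class calls of plasma cells and of B cells in the 4 tissues (percent of cells, stacked bars, with the number of cells). Small intestine plasma cells are nearly all IgA (217 of 224), cecum plasma cells are divided among IgA, IgM and IgG2b, and B cells are mostly IgM/IgD in every tissue. No IgG gene was listed in stomach, and Ighg1 and Ighg2c were not listed in colon.

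The light-chain call, made in the same way, gave 198 kappa and 21 lambda cells in small intestine, so that 9.59% of 219 called plasma cells were lambda. All 21 lambda cells were IgA, and among IgA cells with a light-chain call the share was 21 of 215, or 9.77% (6.15% to 14.5%). Lambda cells were led by 1 gene of the locus: 15 by Iglc1, 3 by Iglc3 and 2 by Iglc2, with 1 led by none at 80%. They held a median of 2 Igkc UMIs (0 to 176) beside 5062 lambda UMIs (1027 to 11640). In the 194 kappa cells with at least 100 heavy-chain UMIs, lambda UMIs were a median of 0.773% and at most 6.87% of the light-chain UMIs. Their number was a median of 43 per cell (1 to 435). The call needs 80% of the light-chain UMIs, which by itself limits the other chain. Both chains were high in 2 of the 217 cells with many heavy-chain UMIs: 1 IgA cell held 10218 Igkc and 4023 lambda UMIs and another 3385 Igkc and 4472 lambda UMIs, among totals of 25280 and 16248 UMIs. Whether these 2 cells are doublets was not tested. In cecum the lambda plasma cell was 1 of the IgG2b cells, with 1448 Iglc2, 284 Iglc1 and no Igkc UMIs, and the plasma cells of stomach and colon were all kappa.

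Cells with more heavy-chain UMIs also held more light-chain and J chain UMIs in small intestine plasma cells. Over the 194 cells called IgA and kappa, Igkc had a median of 2.55 UMIs per Igha UMI (1.15 to 68.7) and Jchain 0.428 (0.0915 to 7.07). Spearman's rho was 0.809 between Igha and Igkc, 0.803 between Igha and Jchain and 0.864 between Igkc and Jchain. As shares of each cell's UMIs the same rho were 0.0631, 0.113 and 0.246. These genes are themselves most of a cell's UMIs, so depth and their sum cannot be told apart, and cells of 1 library are not replicates. The cell at the far end held 164 Igha UMIs beside 11266 of Igkc and 1160 of Jchain. Among IgA cells with at least 100 heavy-chain UMIs, the 21 lambda cells held a median of 2469 Igha UMIs and 2.04 light-chain UMIs per Igha UMI (1.02 to 4.64), and the 193 kappa cells 2184 and 2.57 (1.17 to 68.9), so their ranges overlapped.

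Jchain was present in plasma cells of every class, those without the tailpiece cysteine shown above included. Jchain per heavy-chain UMI was 0.464 and 0.499 in the 2 IgG2b cells of cecum and 0.248 in the IgG3 cell of colon. In cecum IgA cells it was 0.324 to 1.002 (median 0.455, 8 cells), and in cecum IgM cells 0.225 to 0.457 (3 cells), so the IgG2b cells lay inside the range of the IgA cells. The 3 stomach IgM cells ran from 0.04995 to 0.321, and the IgM cell of colon was at 0.547. Jchain chose these cells, so an IgG cell with fewer than 10 Jchain UMIs would not have been counted among them.

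**Figure D3:**
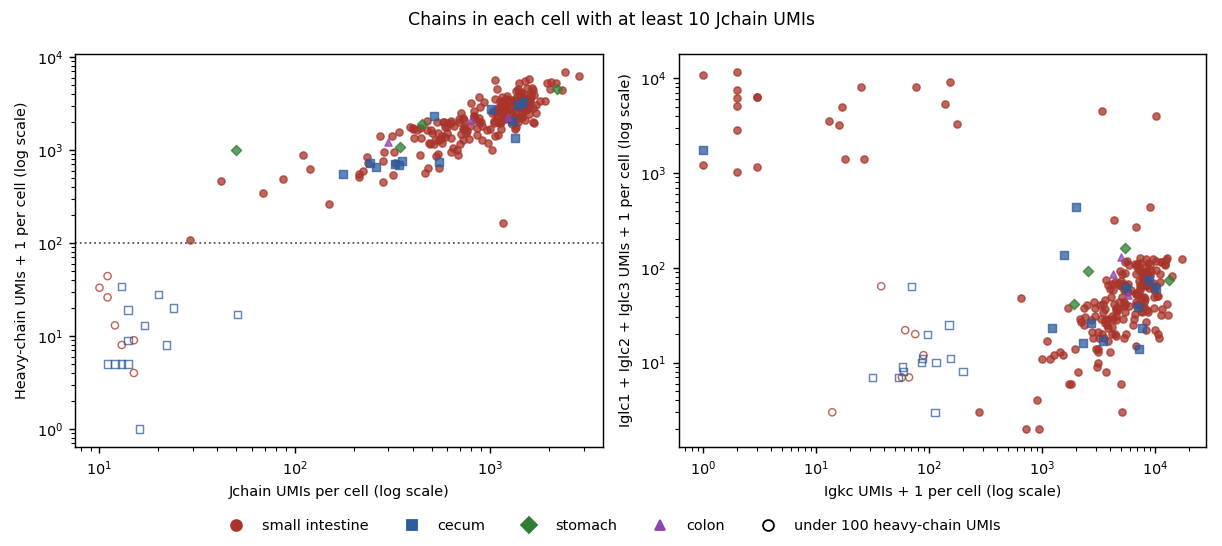
Cells with at least 10 Jchain UMIs, one by one: heavy-chain UMIs + 1 against Jchain UMIs (left) and lambda UMIs + 1 against Igkc UMIs + 1 (right), all axes on a log scale, with 1 colour and shape per tissue and open symbols for cells under 100 heavy-chain UMIs (dotted line). The 13 cecum cells under that line lie apart at 11 to 51 Jchain UMIs, and the kappa and lambda cells with many UMIs form separate groups except for the 2 small intestine cells high in both chains.

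B cells of all 4 tissues were mainly IgM/IgD. With a call at 80% of at least 2 heavy-chain UMIs, IgM/IgD made up 57 of 65 called cells in small intestine, or 87.7% (77.2% to 94.5%), and 439 of 462 in cecum, or 95.02% (92.6% to 96.8%). It made up 103 of 103 in stomach, with a lower bound of 96.5%, and 186 of 194 in colon, or 95.9% (92.0% to 98.2%). No IgG gene was listed in stomach, so a B cell there could be called only IgM/IgD or IgA, and Ighg1 and Ighg2c were not listed in colon. The intervals of small intestine and cecum overlap, as do those of cecum and colon and, narrowly, of cecum and stomach. Ighm was at 2765 CPM in small intestine, 2032 CPM in cecum, 4047 CPM in stomach and 2429 CPM in colon B cells. Ighd, which marks B cells before switching, was at 70.7, 235, 121 and 267 CPM in the same order.

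Switched B cells were few and rested on few UMIs. IgA was called in 6 small intestine, 11 cecum, 0 stomach and 6 colon B cells, with medians of 4, 3 and 8 heavy-chain UMIs in the 3 tissues that had any. IgG2b was called in 1 small intestine, 11 cecum and 2 colon cells. Under the same call 148 Cd3-positive cells of small intestine, 5.91% of them, would be IgA, with a median of 2 and at most 7 Igha UMIs, and in cecum and colon 1.502% and 1.24% would be. The 6 IgA calls among 76 small intestine B cells were 7.89%. The 2 shares are not alike: B cells held a median of 6 Ighm UMIs and Cd3-positive cells 1, and Ighm counts against an IgA call. Jchain, not part of the call, had a UMI in 7 of the 8 switched small intestine B cells and in 15 of the 57 called IgM/IgD. How many of the 6 calls come from Igha UMIs of other cells was not tested.

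Igha had a UMI in 40.8% of B and 46.9% of Cd3-positive cells of small intestine, 5.78% and 16.5% in cecum, and 6.83% and 20.4% in colon. In cecum 23 switched B cells held 45 of the 77 Igha UMIs, and in colon 8 held 42 of 53. B cells called IgM/IgD were at 13.8 and 15.6 CPM there, below the 114 and 84.3 CPM of Cd3-positive cells, though Igha is part of the call. Summed over each class, switched cells included, Igha in B cells was within 2-fold of its level in Cd3-positive cells. It was at 249 CPM in B cells and 241 CPM in Cd3-positive cells of small intestine (ratio 1.03, 0.797 to 1.32), at 82.5 and 114 CPM in cecum (0.724, 0.565 to 0.916), at 6.20 and 10.3 CPM in stomach and at 106 and 84.3 CPM in colon (1.25, 0.933 to 1.65). The other members stood above that background in B cells: 6 of 7 members with at least 20 UMIs were 2-fold or more higher in small intestine (10.9% of 11247 genes), 7 of 8 in cecum (8.39% of 11124), 5 of 5 in stomach (7% of 7719) and 6 of 7 in colon (9.03% of 11984). Cd79a and Ms4a1, which chose the B cells, are not members. Igkc was 20.1-fold higher in small intestine B cells, 258-fold in cecum, 713-fold in stomach and 1377-fold in colon. Ighm was 7.01-, 4.80-, 16.6- and 6.04-fold higher in the same order, Ighd 17.3- to 64.3-fold, and Ighg2b in cecum 572-fold (99.7 to 22886). The Ighg2b ratio was taken against 1 UMI in the 3461 Cd3-positive cells of cecum, and that of Ighd in stomach against 2 UMIs.

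Between tissues, the members past 2-fold in B cells were most often Igha, Jchain, Ighd and Iglc2. Summed over the class, switched cells included, Igha in B cells was within 2-fold of its level in Cd3-positive cells, in which it also differed between tissues. Jchain was held under 10 UMIs per B cell by the rule, so the ratios of both are a description. Small intestine over cecum gave 1 of 8 members 2-fold or more higher and 3 lower, where 7.34% and 6.22% of 7334 genes were. Igha was 3.02-fold (2.14 to 4.25) higher in small intestine, and Ighd (0.301 of the cecum level), Ighg2b (0.356) and Igkc (0.498) were lower, though Ighg2b and Igkc were within 2-fold in part of the settings. The 76 small intestine B cells also held 2564 CPM of mast cell marker genes and 2393 CPM of T cell ones; the part of these in the differences was not tested. In the 47 of them with fewer than 2 Cd3 UMIs, Igha was at 304 CPM, Ighm at 3249 CPM, Ighd at 42.6 CPM and Igkc at 5487 CPM. Small intestine over stomach gave 2 of 7 higher, Igha and Jchain, and 2 lower, Igkc and Iglc2 (14.2% and 5.99% of 5225 genes). Small intestine over colon gave 2 of 8 higher, Igha at 2.36-fold and Jchain at 10.3-fold, and 2 lower, Ighd at 0.265 and Iglc2 at 0.398 (7.79% and 4.88% of 6149 genes).

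Cecum over colon, with the most B cells on both sides, gave 2 of 8 members higher and 0 lower (4.24% and 3.34% of 7667 genes). Jchain was 7.93-fold (4.43 to 15.6) higher in cecum B cells, at 190 CPM in cecum and 23.9 CPM in colon, with 19 B cells of 5 to 9 Jchain UMIs in cecum and 1 in colon. With the border at other numbers of UMIs and under the other settings its log2 ratio ran from 1.97 to 3.68. Ighg2b was 2.47-fold (1.45 to 4.45) higher, at 83.6 CPM in cecum and 33.9 CPM in colon, and under 2-fold with the border at 5 Jchain UMIs. Igkc had a ratio of 1.08 and Igha of 0.781 (0.543 to 1.13), an interval that holds 1. Cecum over stomach gave 2 of 7 higher, Igha at 13.3-fold (3.56 to 112) and Jchain at 61.2-fold (10.8 to 2430), and 1 lower, Iglc2 at 0.313 (15.7% and 5.75% of 7317 genes). Stomach over colon gave 0 of 6 higher and 2 lower, Igha at 0.0587 (0.00693 to 0.223) and Ighd at 0.453 (5.43% and 13.1% of 6113 genes). Only 2 Igha UMIs and 1 Jchain UMI were found in all stomach B cells, and every ratio of these genes with stomach rests on them. Stomach B cells held 7782 CPM of mast cell marker genes, whose part in these ratios was not tested.

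Of 14 measured genes of switching and the germinal centre, the site where B cells divide and switch, 9 were 2-fold or more higher in cecum than in colon B cells and 0 lower (4.24% and 3.34% of 7667 genes). The list was chosen with earlier results of these data known. Mki67 was 13.3-fold higher and S1pr2, a receptor that holds B cells in germinal centres, 11.3-fold (2.94 to 96.3). The Mki67 ratio rests on few cells. In cecum 10 of the 23 switched B cells held 79 Mki67 UMIs and 3 of the 95 without a call 17, while 2 of the 439 called IgM/IgD held 3.

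The lambda share was lower in plasma cells than in B cells by UMIs, but by calls the intervals overlapped in every tissue. Lambda UMIs (Iglc1, Iglc2 and Iglc3) were 9.54% of light-chain UMIs in plasma cells and 27.6% in B cells of small intestine, 4.40% and 17.7% in cecum, 1.56% and 34.3% in stomach, and 1.73% and 26.1% in colon. The plasma cell values of stomach and colon rest on 4 and 3 kappa cells, and 1 cecum cell held 1448 of 1817 Iglc2 UMIs. By calls, lambda made up 9.59% of plasma cells (6.03% to 14.3%) and 5.0% of B cells (0.611% to 16.9%) in small intestine. In cecum 1 of 25 called plasma cells was lambda, or 4.0% (0.101% to 20.4%). With 4 and 3 called cells, the upper bounds were 60.2% in stomach and 70.8% in colon. In B cells the light-chain call was mixed in 47.4%, 28.9%, 51.9% and 42.4% of cells, and lambda made up 5.0%, 6.42%, 18.0% and 11.02% of called cells in the order small intestine, cecum, stomach and colon. Cells with a mixed call held UMIs of both chains. Iglc2 was at 670 CPM in small intestine, 965 CPM in cecum, 3080 CPM in stomach and 1685 CPM in colon B cells, and Iglc1 at 755, 724, 1172 and 652 CPM, so stomach B cells had the highest level of both.

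Cd3-positive cells should make no antibody, and their UMIs of the members followed the plasma cells for some genes and not for others. Small intestine over colon gave 5 of 7 members 2-fold or more higher and 0 lower (6.62% and 5.38% of 12655 genes). Igkc was at 244 CPM in small intestine, 38.3 CPM in cecum, 15.05 CPM in stomach and 6.63 CPM in colon Cd3-positive cells. Without the few cells that held a UMI of Cd79a or Ms4a1 it was at 241, 12.96, 15.07 and 5.04 CPM, so small intestine was highest and colon lowest either way. Jchain was at 62.3, 3.07, 0.940 and 0.765 CPM in that order of tissues. Iglc1 was at 39.9, 3.95, 0 and 0.170 CPM, and 1 cecum cell held 15 of the 27 UMIs there. Against colon, small intestine was 36.8-fold (29.3 to 46.8) higher in Igkc, 81.4-fold (42.5 to 179) in Jchain and 235-fold (64.3 to 1947) in Iglc1. Colon Cd3-positive cells held 9 Jchain and 2 Iglc1 UMIs in all. With each cell thinned to 500 UMIs, Igkc had a UMI in 12.7% of small intestine, 1.07% of cecum, 0.845% of stomach and 0.354% of colon Cd3-positive cells, and in 46.5%, 2.80%, 3.94% and 1.56% without thinning.

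Ighm and Igha did not follow that order. Ighm was at 395 CPM in small intestine, 424 CPM in cecum, 244 CPM in stomach and 402 CPM in colon Cd3-positive cells, with a ratio of 0.981 (0.935 to 1.03) for small intestine over colon. It had a UMI in 17.2%, 19.3%, 13.5% and 19.2% of the cells thinned to 500 UMIs, and in 54.5%, 52.3%, 39.7% and 65.9% without thinning. Igha was at 241, 114, 10.3 and 84.3 CPM, so that small intestine was 2.87-fold over colon in Igha and 36.8-fold over it in Igkc. Small intestine over cecum gave 4 of 7 members higher and 0 lower (8.8% and 6.04% of 12104 genes), and small intestine over stomach 6 of 7 and 0 (16.7% and 8.51% of 11337 genes). Cecum over stomach gave 4 of 7 higher and 0 lower (15.1% and 8.42% of 11161 genes), with Igha at 11.02-fold (6.12 to 22.2). Cecum over colon gave 4 of 7 higher and 0 lower (1.99% and 4.66% of 12396 genes): Igkc at 5.77-fold (4.47 to 7.53), Iglc1 at 23.2-fold (5.83 to 201, against 2 UMIs in colon), Iglc2 at 2.86-fold and Jchain at 4.01-fold, but neither Igha nor Ighm. The light-chain values of cecum rest on few cells: without the cells with a UMI of Cd79a or Ms4a1, Iglc1 was at 0.883 CPM in cecum and 0.171 CPM in colon, and Iglc2 at 0.589 and 1.02 CPM. On the same cells the log2 ratio of small intestine over cecum was 4.22 for Igkc, against 2.67 over all Cd3-positive cells, and 5.49 for Iglc1, against 3.34. Stomach over colon gave 1 of 4 higher, Igkc at 2.27-fold, and 2 lower, Igha at 0.123 and Ighd at 0.330 (0.0392 to 1.24), where 9.49% and 15.5% of 11881 genes were.

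The UMIs in Cd3-positive cells were also set against the amount they would have at the ratio of each gene to Igkc in the plasma and B cells of the same library. At that ratio the 78 Igkc UMIs of colon Cd3-positive cells go with 8.59 Igha UMIs, and 991 were counted, 115-fold more. The factor for Igha was 14.5 in cecum, with 780 UMIs counted, 4.05 in stomach, with 11, and 2.32 in small intestine, with 1658. For Ighm it was 345 in colon, 138 in cecum, 82.0 in stomach and 873 in small intestine. Jchain lay nearer its amount at that ratio, with factors of 0.971, 0.587, 0.549 and 1.39 in the same 4 libraries. Without the Cd3-positive cells that held a UMI of Cd79a or Ms4a1, the factor in cecum was 43.1 for Igha and 1.66 for Jchain, and in colon 152 and 1.28. Among Cd3-positive cells with no UMI of Cd79a, Ms4a1 or Igkc, Igha was at 250, 114, 10.8 and 84.4 CPM and Ighm at 382, 418, 239 and 402 CPM in small intestine, cecum, stomach and colon, so neither rested on cells that also held B cell transcripts. The source of these UMIs was not tested, and counts per gene do not show whether they come from full-length transcripts.

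**Figure D4:**
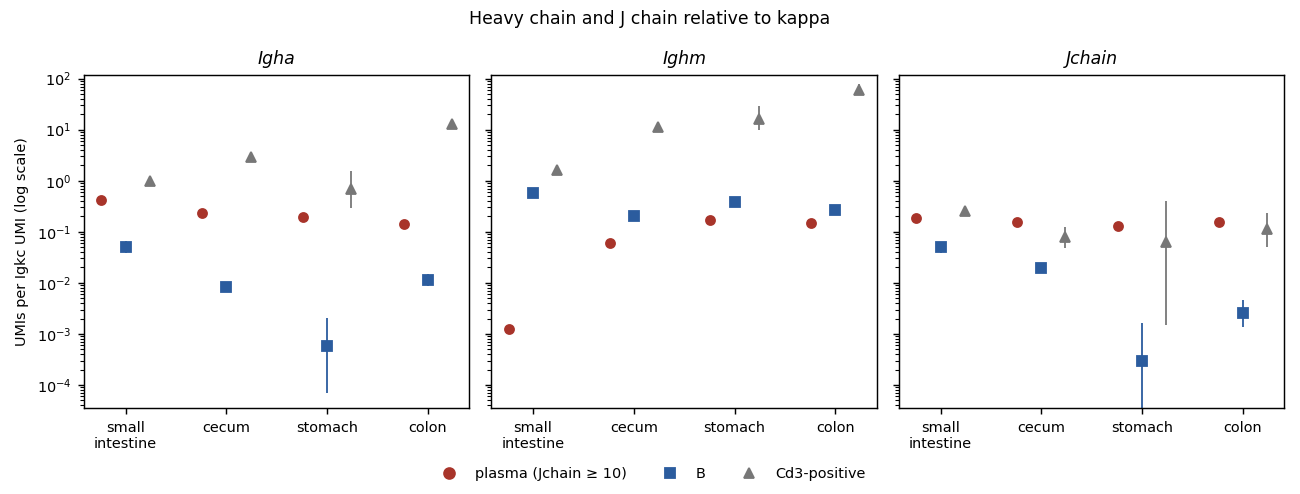
UMIs of Igha, Ighm and Jchain per Igkc UMI (log axis) in plasma cells, B cells and Cd3-positive cells of each library, with exact 95% intervals. Jchain per Igkc is of like size in plasma cells and Cd3-positive cells, while Igha and Ighm per Igkc are higher in Cd3-positive cells, up to 12.7 and 60.7 in colon.

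Igha was not spread evenly over the Cd3-positive cells. In cecum it was at 122 CPM in cells with Cd8a and no Trdc, at 74.2 CPM in cells with at least 2 UMIs of Trdc, the gamma-delta T cell receptor gene, and at 18.5 CPM in cells with Cd4. In colon the same subsets were at 97.7, 61.5 and 17.0 CPM. Cells with Cd8a were 1.65-fold (1.26 to 2.19) over cells with Trdc in cecum and 1.59-fold (1.35 to 1.88) in colon, and 6.62-fold (2.24 to 32.3) and 5.73-fold (2.23 to 21.1) over cells with Cd4. In small intestine the values were 262, 236 and 181 CPM, closer together, and in stomach no UMI was found in any of the 3 subsets, where 3 counts would be 20.2, 22.8 and 26.1 CPM. Cells led by macrophage markers had 156 CPM of Igha in small intestine and no Igha UMI in cecum (18 cells, with 3 counts at 41.6 CPM) and colon (51 cells, 9.70 CPM), while those led by mast cell markers held 194 CPM in small intestine, 181 CPM in cecum and 2.18 CPM in stomach.

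Ighm was high in 1 more kind of cell. Small intestine cells led by dendritic cell markers, of which 171 of 179 had a UMI of Siglech, a surface receptor of plasmacytoid dendritic cells, held 1790 CPM of Ighm in those 171 cells, all of which had at least 1 UMI. Iglc3 was at 998 CPM in them, and Cd79a had a UMI in 1.12% of the 179 cells. Igha was at 537 CPM over the 179 cells, of whose 387 UMIs 1 cell held 283. All cells led by the same markers, with or without Siglech, held 696 CPM of Ighm in cecum (33 cells), 387 CPM in stomach (49 cells) and 877 CPM in colon (26 cells). Siglech had a UMI in 66.7%, 10.2% and 65.4% of them. In those with Siglech, Ighm was at 748 CPM in cecum (22 cells), 1258 CPM in stomach (5 cells) and 1184 CPM in colon (17 cells). In stomach, cells led by mast cell markers held 36.6 CPM of Ighm and those led by macrophage markers 206 CPM.

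**Figure D5:**
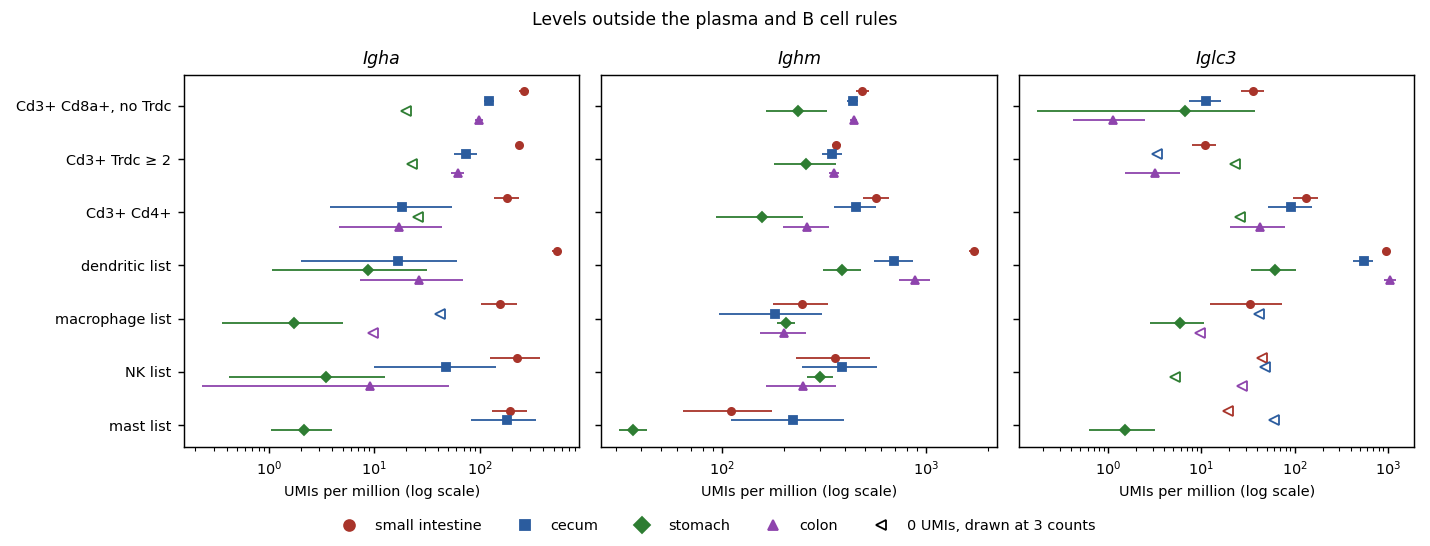
Igha, Ighm and Iglc3 (CPM, log axes) in cells outside the plasma and B cell rules, by subset of Cd3-positive cells and by leading marker list, with 1 colour and shape per library, exact 95% intervals, and open triangles at the level of 3 counts where no UMI was found. Igha is lower in Cd4 than in Cd8a cells of cecum (18.5 and 122 CPM), and Ighm and Iglc3 are highest in the small intestine and colon cells led by dendritic cell markers.

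The genes that make a secretory cell were higher in the plasma cells with many heavy-chain UMIs. Of 23 secretory genes, which fold, glycosylate and export new protein or drive the plasma cell state, 16 were 2-fold or more higher and 0 lower in the 217 small intestine cells than in B cells (4.24% and 81.2% of 7262 genes), with a median log2 ratio of 1.84 against -2.03 over all genes. Derl3, part of the machinery that removes misfolded protein, was 34.0-fold (9.37 to 281) higher, and Fkbp11, a folding enzyme of the endoplasmic reticulum, 30.3-fold (5.40 to 1199). Tnfrsf17, the plasma cell survival receptor BCMA, had 595 UMIs in plasma cells and 0 in B cells and was at least 18.3-fold higher. The smallest ratios were those of the transcription factor Irf4, 0.568 (0.435 to 0.754), the chaperone Hspa5, 0.809, and the transcription factor Prdm1, 1.15 (0.584 to 2.58). When CPM were taken over UMIs outside immunoglobulin genes, all 23 were 2-fold or more higher, Irf4 at 2.01-fold and Prdm1 at 4.07-fold (14.6% of 7158 genes higher), so the direction of Irf4 and Hspa5 depends on that scale. In cecum 18 of 20 secretory genes were higher and 0 lower (2.23% and 73.2% of 6694 genes), with Derl3 at 138-fold (52.0 to 517) and Xbp1, the main regulator of secretory capacity, at 17.8-fold.

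B cell identity genes were lower in the same plasma cells. In small intestine 16 of 17 were 2-fold or more lower and 0 higher, where 81.2% of all genes were lower by CPM, so the median log2 ratio of -5.58, against -2.03 over all genes, says more than the count. Per UMI outside immunoglobulin genes 13 were lower and 1 higher, where 19.9% of genes were lower. Bank1, a B cell receptor adaptor, had 1 UMI in plasma cells and 71 in B cells, and Cxcr5, the receptor that leads B cells to follicles, 1 and 38. Ly6d had a ratio of 0.810 (0.725 to 0.907) by CPM and 2.87 on the other scale, and was the 1 member higher there. In cecum 17 of 18 were lower and 0 higher, where 73.2% of genes were lower, with a median of -3.63 against -1.73. Of 5 homing genes 1 was higher and 3 lower by CPM. Ccr10, the receptor for a chemokine of mucosal epithelium, had 848 UMIs in small intestine plasma cells and 0 in B cells, at least 26.1-fold higher, and was at least 69.7-fold higher in cecum. Ccr9, the receptor for the small intestinal chemokine Ccl25, had a ratio of 0.272 by CPM and 0.964 (0.776 to 1.20) per UMI outside immunoglobulin genes. Cxcr4 was lower on both scales, at 0.0257 and 0.0911. Of 5 genes of Fc receptors and their partners 5 were lower by CPM, where 81.2% of genes were, and 2 on the other scale, where 19.9% were, with Fcmr, the receptor for IgM, at 1 UMI in plasma cells and 148 in B cells.

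The 13 cecum cells with few heavy-chain UMIs differed from B cells in another way. All 16 measured genes of switching and the germinal centre were 2-fold or more higher in them than in cecum B cells (17% of 6943 genes), with a median log2 ratio of 2.18. Mki67 was 12.1-fold (9.67 to 15.2) higher. Of 18 B cell identity genes 13 were lower and 0 higher (22.6% of genes lower), among them Ccr7, a receptor for lymphoid homing, with 0 UMIs in the 13 cells and 958 in B cells. Of 18 secretory genes 2 were higher and 2 lower, and Irf4 was at 0.0589 of the B cell level. In the 217 small intestine cells with many heavy-chain UMIs, 16 of 16 genes of switching and the germinal centre were lower by CPM, where 81.2% of genes were, and 11 of 16 per UMI outside immunoglobulin genes, where 19.9% were. In the 13 cecum cells with many, 11 of 16 were lower by CPM, near the 73.2% of all genes.

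By Pearson's r of log2(CPM + 1) over the 14 sums of a class and library with at least 10 cells, the 4 genes most like Igha were Edem1 (0.94), Txndc11 (0.90), Ube2j1 (0.89) and Creld2 (0.89). Those most like Jchain were Prrc1 (0.92), Derl3 (0.91), Ube2j1 (0.88), Myl4 (0.86) and Txndc5 (0.85). For Ighm they were Vars (0.92), Syvn1 (0.91), Neil1 (0.91), Mbd4 (0.91) and Pik3c2b (0.90), of which 1 of 5 remained with sums of at least 30 cells. The 14 points share their libraries and differ in depth, so these values are a description.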

How the data were processed

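Single-cell counts of 4 libraries, 1 per tissue, were read as the raw UMI counts of each symbol in each cell that the authors deposited; the submitters' processing notes name Cell Ranger, Seurat 3.0.0 and GRCm38 (mm10). The extraction protocol in the labels is the same for all 4 and names colons only, so the tissue labels were used. The 5 barcodes with fewer than 200 genes were left out, and no doublet caller was run. UMIs were summed per class and library and given as CPM. Shares have Clopper-Pearson intervals, levels exact Poisson intervals and ratios exact conditional binomial intervals, all at 95%. A ratio was given from 20 UMIs over both sides, and against a count of 0 as a bound with 3 counts summed over the class. A side of 1 or 2 UMIs was kept as a ratio and not turned into a bound, so such ratios rest on those few UMIs. A cell led by a marker list held at least 3 UMIs of it and more of it than of other lists. The ratio calculation was tested on simulated data.

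The genes and lists were chosen with earlier results of these data known. From each list the text could name the 3 genes at the top and the 3 at the bottom by ratio. A comparison of the lists between antibody classes had been planned, but no contrast had 20 cells on both sides, so plasma cells over B cells were compared instead, after the data were seen. The split at 100 heavy-chain UMIs, the subsets of Cd3-positive cells, the scale outside immunoglobulin genes and the ratios by light chain were also chosen after seeing the data. Positions are from GENCODE M21 (GRCm38). Scripts ran in Python 3.11.15 with numpy 2.4.6, scipy 1.17.1 and pandas 2.3.3.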

Additional observations from a re-analysis of the deposited data

How the results depend on the processing

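Over 18 other settings the 11 main results stayed within their interval, or within 1.5 times for a number of cells, in 183 recomputed values and not in 15, and none reversed. With Jchain at least 5 UMIs, cecum had 45 plasma cells, the members took 68.85% of UMIs in small intestine plasma cells, and IgM/IgD made up 96.9% of called cecum B cells. With Jchain at least 20 UMIs, cecum had 17 plasma cells, the IgA share in small intestine was 99.54% and the members' share of UMIs 71.4%. With at least 100 heavy-chain UMIs, chosen after seeing the data, these were 13 cells, 99.54% and 71.4%. Without plasma and B cells of 2 Cd3 UMIs the share of UMIs was 71.4%. The IgM/IgD share of B cells was 94.55% in small intestine with a higher minimum of UMIs per call, and 86.39% in cecum and 91.26% in colon when a gene counted only above the 99th percentile of Cd3-positive cells. The log2 ratio of Igkc in Cd3-positive cells of small intestine over colon was 5.582, against 5.202, both with 1 UMI of Cd79a or Ms4a1 enough for a B cell and with such cells left out. The cause of these shifts was not tested. The 62 single ratios stayed within their intervals in 1068 recomputed values and not in 44, and 4 ratios, all within 2-fold, changed sign. Some ratios past 2-fold fell under it in part of the settings: in B cells Ighg2b for cecum over colon (log2 ratio down to 0.69) and small intestine over cecum (-0.75), Igkc for small intestine over cecum (-0.88) and over stomach (-0.95), and Ighd for stomach over colon (-0.99), and in Cd3-positive cells Ighd for small intestine over stomach (0.92). No paired analysis was possible because each tissue has 1 library. Small numbers of plasma cells in stomach and colon, and of UMIs per B cell, limit the calls.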
